A study of Mus musculus with 8 samples.

Results

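The Hippo pathway genes Sav1, Stk3, Stk4, Lats1, Lats2, Nf2, Yap1 and Wwtr1 were followed through 8 mouse liver tumors by DNA copy number, measured as the signal of tumor DNA over that of reference DNA at each array probe. The windows reach 0.5 Mb to each side of a given mm9 (NCBI37) position for each of the 8 genes and hold 672 of the 170183 probes on the autosomes and X. The genes and the stretch around Sav1 were chosen by earlier results of the same log2 ratios, above all by a deep loss at Sav1 in 1 tumor, so the levels below are descriptions without a test, unless a test is named.

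The tumors were liver tumors of individual male FAH-/- mice, which lack the last enzyme of tyrosine breakdown and survive on NTBC (nitisinone), an inhibitor of an enzyme further up that route. Over 6 to 12 months the mice had been given NTBC at only 2.5% of its usual dose, which is 7.5 mg/L in the drinking water. Every tumor was labelled red (Cy5) and hybridized against a single green (Cy3) pool, made of DNA from the livers of 6 FAH+/+ littermates, also male, the dyes were not swapped, and non-tumor liver of the FAH-/- mice was not analysed here. The tumors form 1 group, numbered 1 to 8 in the order of deposition, with tumors 1 to 4 on one slide and tumors 5 to 8 on another, scanned on different occasions, so that slide and scan cannot be told apart.

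The Hippo pathway is a kinase cascade that restrains growth, and in the liver its loss in hepatocytes is known to enlarge the organ and to promote tumors. Nf2 (merlin) and the adaptor Sav1 help to activate the kinases Stk3 and Stk4 (the mammalian Hippo kinases), which together with Sav1 switch on the kinases Lats1 and Lats2. Lats1 and Lats2 phosphorylate the co-activators Yap1 and Wwtr1 (TAZ) and keep them out of the nucleus, where they would otherwise drive growth genes through TEAD factors. DNA of a tumor gives the copy number only, not the activity of the pathway, and holds no marker by which the labelled tissue could be checked.

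Median spot signals were 4.17 to 6.56 times the local background in the red channel and 4.27 to 11.1 times in the green channel, and the number of arrays limits the precision. Levels are given on 2 scales. For the first scale each array was centred on its median. For the second, the probe-specific pattern shared by the arrays was removed. On this scale 0 is the commonest segment level of each tumor, with segments weighted by their probes. The second scale lowered the noise between neighbouring probes from between 0.39 and 0.65 to between 0.12 and 0.21. Tumors 7 and 8 stood apart by a weaker shared pattern, with noise of 0.39 on the first scale against at least 0.62 in the others. A loss of 1 copy of 2 in all cells would give a log2 ratio of -1. The share of tumor cells in each sample was not known, so ratios were not converted into copies.

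Sav1 had a deep, short loss in tumor 1 and in no other tumor. On the second scale 33 neighbouring probes, chr12:70993213-71313799 in mm9, averaged -2.03 ± 0.063 (SE over probes) in tumor 1, while the rest of chromosome 12, itself low in that tumor, averaged -0.69. The interval thus lay 1.35 below its chromosome, a difference of -1.35. As ratios these second-scale means are 0.245 in the interval and 0.622 on the rest of the chromosome. They are relative to the commonest segment level of tumor 1, not to the signal of the pool. With normexp background correction the interval was shallower, at -1.09 on the first scale and -1.36 with the pattern removed. The interval mean on the first scale was -1.67 ± 0.15 (SE) and the rest of the chromosome was at -0.47, a difference of -1.20. The interval spans 320.6 kb, from 76.8 kb before the given Sav1 position at 71.07 Mb to 243.8 kb past it.

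The edges were sharp at the spacing of the array, whose probes in the interval had a median distance of 9.02 kb. On the proximal side the log2 ratio of tumor 1 on the second scale was -0.73 at the last probe outside, chr12:70976008-70976067, and -2.24 at the first probe inside. On the distal side it was -2.16 at the last probe inside and -0.84 at the first probe outside, chr12:71327374-71327433. The unprobed gaps at the edges were 17.1 kb and 13.6 kb, which bounds the loss at 351.3 kb. The 30 flanking probes looked at, 15 on each side, ran from -0.98 to -0.38 in tumor 1, and 0 of the 30 reached -1. In the interval 32 of 33 probes were at or below -1. The same pair of edges came out on the ratio of tumor 1 to the median of the other tumors, and on the first scale 1 probe more was taken in on each side (35 probes, 351.4 kb).

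Probe by probe, tumor 1 had an SD of 0.36 within the interval on the second scale, against 0.20 over the 223 probes within 2 Mb outside it; without the highest probe the SD was 0.27. From the proximal edge to the Sav1 position the values were -2.24, -2.28, -1.95, -2.49, -2.07, -1.81, -1.94, -2.07, -2.34 and, at the probe nearest to that position (chr12:71070750-71070809), -1.53. The next 8 probes read -2.25, -2.39, -1.999, -1.92, -1.31, -2.16, -1.64 and -1.88. These 18 probes show a floor near -2 with its shallowest point at chr12:71122459-71122518. The following 5 probes read -2.22, -2.17, -2.10, -2.16 and -2.18, then 1 probe rose to -0.67 and the next fell to -2.68, the highest and the lowest of the interval. The last 8 probes read -2.24, -2.24, -1.91, -1.86, -2.14, -2.11, -1.98 and -2.16. Divided into 3 parts of 11 probes, the interval averaged -2.09 ± 0.082, -1.99 ± 0.091 and -2.02 ± 0.15 (SE over probes). The third part holds the highest probe, at -0.67, which widens its SE. A slope along the interval was not tested, since these are probes of 1 tumor.

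**Figure D1:**
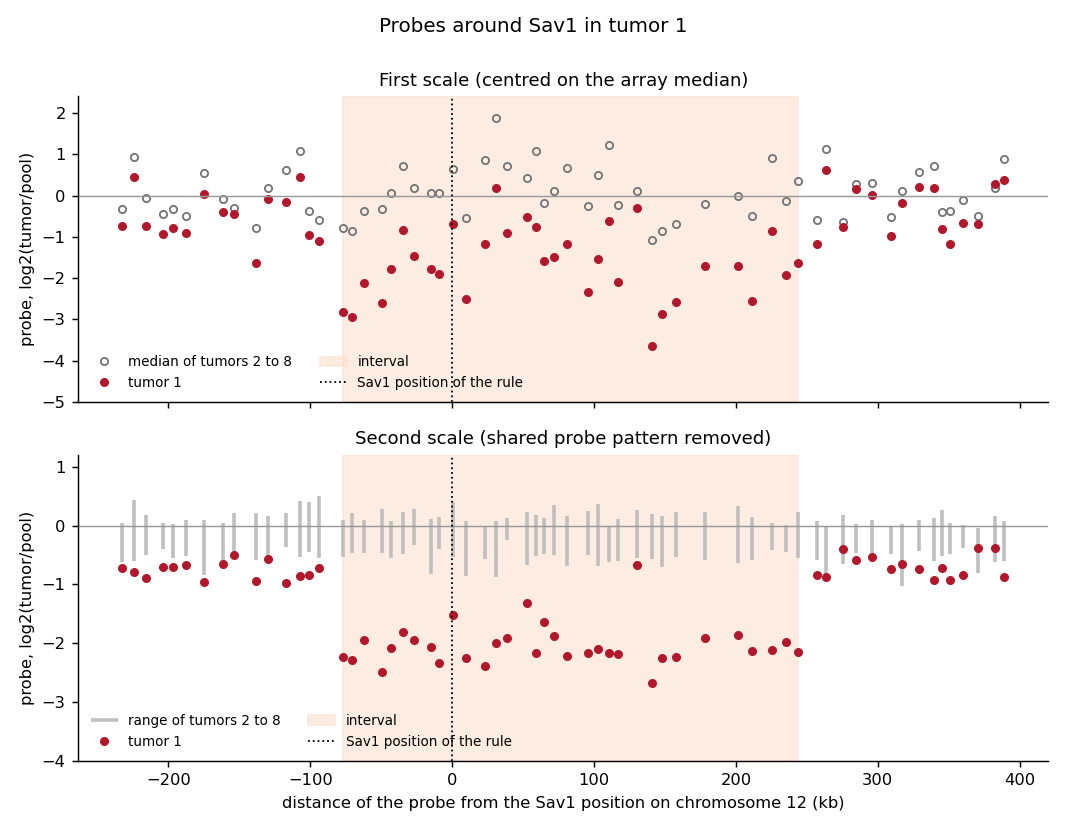
Log2 ratios of single probes against their distance in kb from the Sav1 position on chromosome 12, on the first scale (upper panel, tumor 1 in red and the median of tumors 2 to 8 as open points) and on the second scale (lower panel, tumor 1 in red and the range of tumors 2 to 8 as grey bars), with the interval shaded. On the second scale 32 of the 33 shaded probes of tumor 1 lie at or below -1, and all 30 probes outside it lie above -1.

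The highest probe, chr12:71200443-71200502, lies 130.5 kb past the Sav1 position and was measured by 1 spot. Its neighbours were at -2.18 and -2.68. On the array of tumor 1 the red signal of this spot differed from the median of the other arrays by -0.98 on the log2 scale and the green signal was also low (-0.71), whereas the green signal at the other 32 probes ran from -0.41 to 0.40. Without this probe the interval mean was -2.07 ± 0.048 (SE, 32 probes). At this probe tumor 1, at -0.67, was near its level on the rest of chromosome 12 (-0.69). It was lower there than each of the other tumors, which read -0.55 to 0.26.

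Both channels were looked at apart, because the pool is the same DNA on every array. In the interval the red signal of the tumor 1 array differed from the median of the other 7 arrays by -1.70 ± 0.063 (log2, SE over 33 probes), and it was lower at 33 of 33 probes. The green signal differed by 0.05 ± 0.042 and was lower at 12 of 33 probes. On the rest of chromosome 12 the red difference was -0.42 and the green difference -0.02. The drop in the ratio was therefore a drop of the tumor channel. The red signal was well above background at 32 of 33 probes, and without the other one (chr12:71173091-71173150, at -2.10) the mean was -2.03.

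**Figure D2:**
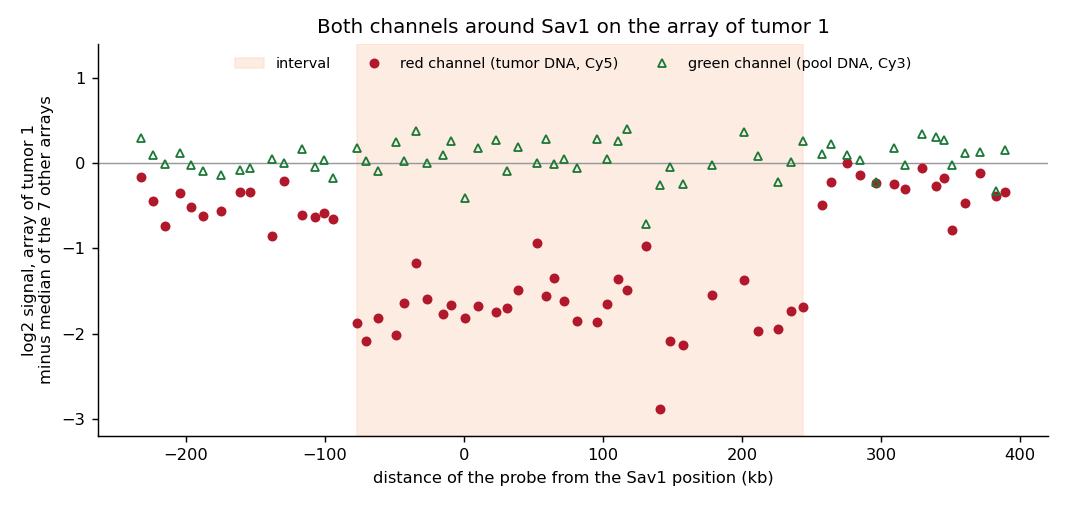
Log2 signal on the array of tumor 1 minus the median of the 7 other arrays, for the red tumor channel (filled circles) and the green pool channel (open triangles), by distance in kb from the Sav1 position, with the interval shaded. The red points average -1.70 in the interval and the green points 0.05.

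At single probes of the interval the shared pattern was as large as the loss. The pattern ran from -0.97 to 1.93 over these 33 probes, and the first-scale values of tumor 1 from -3.64 to 0.17. Their SD over probes fell from 0.88 to 0.36 when the pattern was removed. On either scale tumor 1 was lower than every other tumor at 33 of 33 probes. Chromosome 12 as a whole was also lowest in tumor 1 (second-scale mean -0.69, next tumor 6 at -0.50). Most of the flanking probes were lowest in tumor 1 too on the second scale, so this order is not particular to the interval.

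In the other 7 tumors the interval followed its chromosome. On the second scale the interval means of tumors 2 to 8 were -0.11, -0.04, -0.35, 0.07, -0.46, -0.004 and -0.33, and the differences from the rest of chromosome 12 were 0.05, -0.01, 0.02, 0.08, 0.04, 0.03 and 0.05. The lowest of the 7, tumor 3, lay at -0.012 from its chromosome, against -1.35 in tumor 1. Since the interval was not chosen on these tumors, the signs of the 7 differences were flipped in an exact permutation test, two-sided (n = 7, smallest possible p 0.0156). First-scale differences averaged 0.16 ± 0.039 (SD, n = 7) and were above 0 in all 7 tumors (exact p 0.0156). The first scale keeps the probe pattern that the arrays share, so this p cannot tell a copy-number difference from that pattern. Second-scale differences averaged 0.03 ± 0.028 (SD, n = 7) and were above 0 in 6 of them (exact p 0.0312). Leaving out tumors 2, 4, 5, 6, 7 or 8 gave an exact p of 0.0625 on the second scale. When the pattern was estimated from tumors 2 to 8 only, an alternative added after seeing the data, the mean was -0.0044 ± 0.031 (SD, n = 7) and the exact p was 0.672. That setting centres the mean of these 7 tumors near 0 by its construction, so its p says nothing about a loss. Tumor 3 was then lowest, at -0.057. The second scale takes its pattern from the same 7 arrays and tumor 1, so it too draws their mean towards 0. Its exact p of 0.0312 is therefore not read as a gain or loss.

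A loss of this length and depth was sought along all autosomes and X. Of 1356344 runs of 33 neighbouring probes in the 8 tumors, 16 lay at least 1 below the median of their chromosome, which is 0.00118%. All 16 were in tumor 1 and overlapped the interval at Sav1. This contrast chose the member, so nothing is read from the share.

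Shorter changes within the windows were also counted. A focal run was a run of at least 5 probes within a window whose mean lay at least 0.5 from the chromosome median on the second scale. Among the 64 pairs of a gene and a tumor, 1 held a focal loss, Sav1 in tumor 1, and 0 held a focal gain, while 1.03% of all 1 Mb windows held a focal loss and 0.837% a focal gain. In 4 of the 64 pairs no run was found at all. The next largest steps were 0.39 above the chromosome at Stk4 in tumor 4 (5 probes), 0.35 above it at Lats1 in tumor 3 (5 probes) and 0.35 above it at Sav1 in tumor 4 (5 probes), all under the size required.

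By the order of genes in RefSeq (GRCm38.p6, used for names and order only), the protein-coding neighbours of Sav1 are Dmac2l, Cdkl1, Map4k5 and Atl1 on the proximal side and Nin, Gm9997, Abhd12b and Pygl on the distal side. Map4k5 encodes a kinase of the MAP4K family, members of which can activate Lats kinases beside Stk3 and Stk4. Atl1 encodes the endoplasmic reticulum protein atlastin, Nin the centrosomal protein ninein, and Pygl liver glycogen phosphorylase. Which of these neighbours lie in the interval, and which exons of Sav1 do, was not resolved, since an mm9 gene annotation was not used here.

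The whole Sav1 window (88 probes) was low in 4 tumors on the second scale. Its level in tumors 1 to 8 was -1.21, -0.12, -0.04, -0.35, 0.02, -0.47, 0.03 and -0.38. Tumors 1, 4, 6 and 8 lay at or below -0.2, the size at which a window counts here as lost, and the other 4 lay above it. Only 33 of the 88 probes belong to the deep interval, and without them the window of tumor 1 was at -0.72. In tumors 4, 6 and 8 the window followed chromosome 12, whose means were -0.37, -0.50 and -0.38. The 8 levels on the first scale were -0.94, 0.07, 0.21, -0.15, 0.11, -0.14, 0.15 and -0.28, so that tumors 1 and 8 counted as lost and tumor 3 as gained. Second-scale levels averaged -0.32 ± 0.41 (SD) over 8 tumors and -0.19 ± 0.21 without tumor 1, and the first-scale mean of -0.12 ± 0.37 went to -0.005 without it. Of all 1 Mb windows, 4.79% were lost in at least 4 tumors on the second scale.

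In tumor 4 the low level of chromosome 12 was interrupted close to Sav1, a feature picked out after its values were seen. From the first probe of the chromosome to 71.49 Mb, Sav1 included, the second-scale mean was -0.38 ± 0.0031 (SE, 3555 probes). From 71.52 to 73.23 Mb, starting 0.45 Mb past Sav1, it was -0.05 ± 0.018 (SE, 120 probes), and from 73.23 to 73.91 Mb it was -0.36 ± 0.019 (SE, 65 probes). This stretch of 1.71 Mb lay 0.33 above the rest of chromosome 12 in tumor 4, while in the other tumors it lay between -0.06 and 0.002 from it. First-scale differences were 0.39 in tumor 4 and between -0.003 and 0.06 in the others.

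Nf2, the upstream scaffold on chromosome 11, had the smallest SD over tumors of the 8 genes on the second scale, though not on the first. Its window (98 probes) read 0.01, -0.004, 0.02, -0.008, 0.01, 0.03, -0.12 and 0.01 in tumors 1 to 8 on the second scale, a mean of -0.005 ± 0.048 (SD). Tumor 7 alone departed from the others, and its chromosome 11 mean was -0.08. Its mean on the first scale was 0.19 ± 0.12 (SD), so the sign of this small level differs between the scales.

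Stk3, one of the kinases that bind Sav1, was the member gained in the most tumors on both scales. Its window on chromosome 15 (85 probes) read -0.005, 0.17, 0.25, 0.32, 0.68, 0.37, 0.02 and 0.34 in tumors 1 to 8 on the second scale. Tumors 3, 4, 5, 6 and 8 were at or above 0.2 and tumor 5 was highest. Tumors 1 and 7 stayed near their own commonest segment level. First-scale levels were 0.27, 0.36, 0.50, 0.51, 0.76, 0.69, 0.13 and 0.44, and all but tumor 7 were at or above 0.2. Over the 8 tumors Stk3 averaged 0.27 ± 0.22 (SD) on the second scale, with 0.46 ± 0.21 on the other. It was 0.18 on the first slide and 0.35 on the second slide, and 0.30 without tumors 7 and 8. Of all 1 Mb windows, 3.77% were gained in at least 5 tumors on the second scale.

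The gain of Stk3 was that of its chromosome. Window minus chromosome 15 averaged 0.01 ± 0.032 (SD, n = 8) on the second scale, and no tumor exceeded 0.07. On the first scale, which keeps the probe pattern, it averaged 0.06 ± 0.027 (SD) and ran from 0.02 to 0.10. In tumor 4 the segment with Stk3 covered 84.53 Mb at 0.31, and in tumor 5 it covered 51.96 Mb at 0.68. The other list gene on chromosome 15 is Scrib, a polarity protein, so it was gained in the same 5 tumors by chromosome mean.

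Stk4, the paralogous kinase on chromosome 2, read 0.04, -0.003, 0.07, 0.02, 0.02, -0.15, -0.16 and 0.09 in tumors 1 to 8 on the second scale (98 probes). No tumor reached 0.2 in either direction. First-scale levels ran from -0.06 to 0.30 and tumors 1 and 3 counted as gained. The means were -0.01 ± 0.095 (SD) and 0.17 ± 0.12 on the second and the first scale. In tumor 4 chromosome 2 changed level at 120.46 Mb, from 0.16 ± 0.002 (SE, 8340 probes) proximally to 0.02 ± 0.0027 (SE, 4385 probes) in the distal part that holds Stk4.

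The kinases downstream differed from each other in how much they varied. Lats1 on chromosome 10 (64 probes) read -0.03, 0.02, 0.01, -0.16, -0.06, -0.005, -0.04 and 0.12 on the second scale, a mean of -0.02 ± 0.077 (SD), with no window past 0.2. The first scale gave 0.25 ± 0.11 and counted tumors 1, 2, 3, 6 and 8 as gained, so the sign of the Lats1 mean turns with the scale. Lats2 on chromosome 14 (99 probes) read 0.04, 0.00, -0.01, -0.23, 0.39, -0.50, -0.07 and -0.34. It was lost in tumors 4, 6 and 8 and gained in tumor 5, the only member here that counted both as lost and as gained on the second scale. On the first scale tumors 1 and 5 counted as gained at 0.26 and 0.42, tumor 6 was at -0.23 and tumor 8 at -0.28, while tumor 4 (-0.09) did not reach the size for a loss. The Lats2 mean was -0.09 ± 0.27 (SD) on the second scale and 0.05 ± 0.24 on the first. This first-scale mean, well within its SD, moved to -0.001 without tumor 5, 0.02 without tumor 1, 0.03 without tumor 3, 0.09 without tumor 6 and 0.10 without tumor 8.

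Lats2 followed its chromosome in the tumors with the larger changes, with chromosome 14 means of 0.39 in tumor 5, -0.49 in tumor 6 and -0.26 in tumor 8. Tumor 3 was different. There a segment of 52.26 Mb, chr14:8526343-60785962, read -0.007 ± 0.0023 (SE, 3820 probes) and held Lats2, and the next segment, from 60.81 to 76.88 Mb, read -0.27 ± 0.0041 (SE, 1295 probes). The border lies 2.46 Mb past the Lats2 position. On the second scale Lats2 thus stayed near the commonest segment level of that tumor, while the following stretch fell below -0.2.

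Of the co-activators, Yap1 on chromosome 9 (76 probes) read 0.06, -0.14, 0.03, -0.14, -0.05, -0.50, -0.06 and 0.17 on the second scale. Tumor 6 was far lower than the others and counted as lost on both scales (-0.21 on the first), as did its chromosome 9 with a mean of -0.46. No tumor had a Yap1 gain of 0.2 on the second scale. The highest, tumor 8, carried a segment of 10.58 Mb around Yap1, chr9:3371084-13948842, at 0.19 ± 0.0098 (SE, 655 probes), which lay 0.18 above the rest of its chromosome against -0.05 to 0.08 in the other tumors. On the first scale this window was at 0.25 and tumors 1 and 3 were at 0.30 and 0.25, all counted as gained. The Yap1 mean was -0.08 ± 0.20 (SD) on the second scale and 0.08 ± 0.17 on the first, the latter 0.05 without tumor 1 and 0.12 without tumor 6.

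Wwtr1, the other co-activator, on chromosome 3 (64 probes), read -0.06, -0.12, -0.32, -0.18, -0.004, 0.01, 0.10 and -0.02 on the second scale. Tumor 3 was lost, with a chromosome 3 mean of -0.31, and the other 7 lay within 0.2 of their commonest segment level. On the first scale tumor 3 was at -0.10 and tumor 6, at 0.31, counted as gained. The Wwtr1 mean was -0.07 ± 0.13 (SD) on the second scale and 0.09 ± 0.13 on the first.

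**Figure D3:**
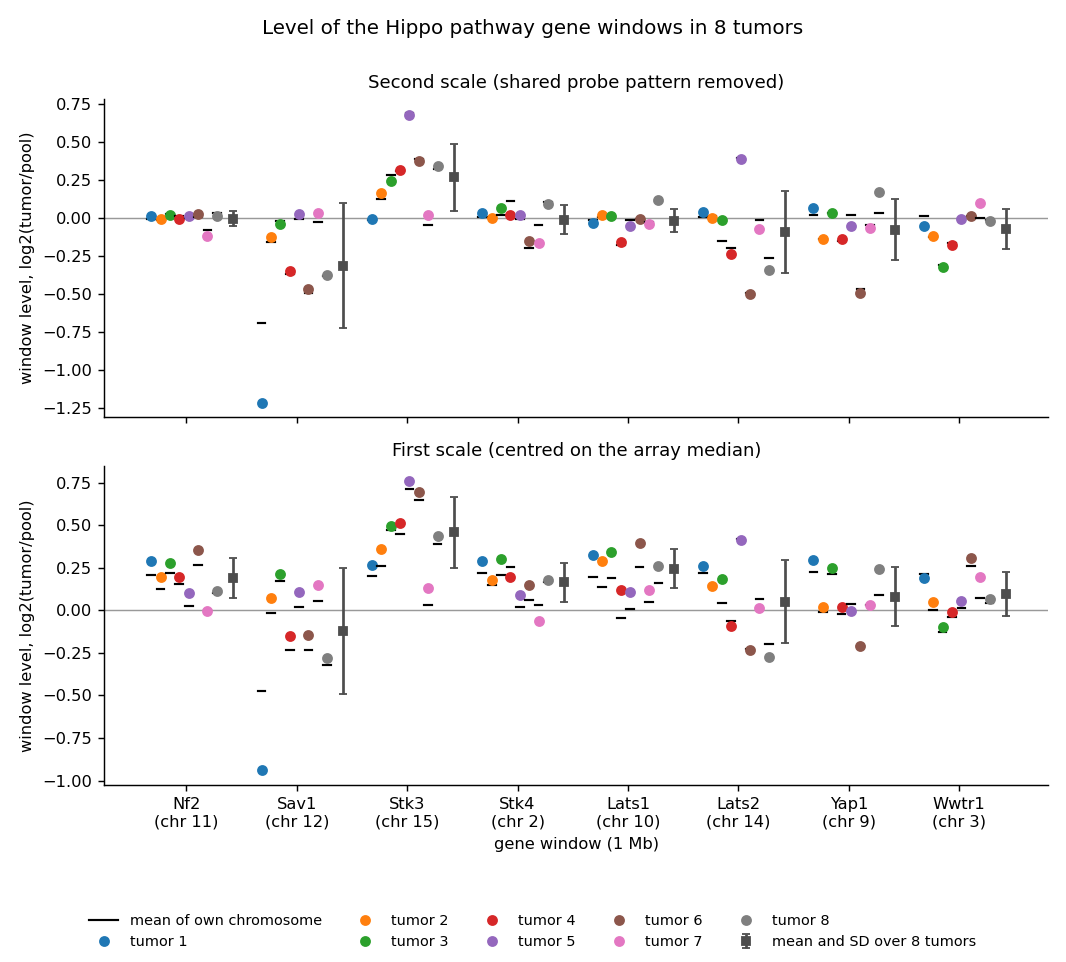
Level of the 8 gene windows in each tumor on the second scale (upper panel) and the first scale (lower panel), as log2 of tumor over pool, with the mean of the window's own chromosome as a black dash and the mean and SD over 8 tumors as a grey square. Stk3 has the highest mean and Sav1 the lowest on both scales, and the Sav1 point of tumor 1 lies far below its chromosome.

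Ordered by mean level on the second scale, the genes ran Stk3, Nf2, Stk4, Lats1, Wwtr1, Yap1, Lats2, Sav1. The step from Stk3 to Nf2 was 0.27 ± 0.20 (SD of the paired difference, Stk3 higher in 7 of 8 tumors). The other steps were smaller than their SD, among them 0.006 ± 0.079 from Nf2 to Stk4 and 0.22 ± 0.44 from Lats2 to Sav1, so these neighbours did not differ beyond their spread.

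Relative to its own chromosome, Sav1 in tumor 1 stood at -0.52 and the other 63 pairs lay between -0.12 and 0.14 on the second scale. The largest of these were Lats2 in tumor 3 (0.14), Yap1 in tumor 8 (0.14) and Stk4 in tumor 7 (-0.12). Apart from Sav1 in tumor 1, then, the level of a member was close to the level of the chromosome it lies on.

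**Figure D4:**
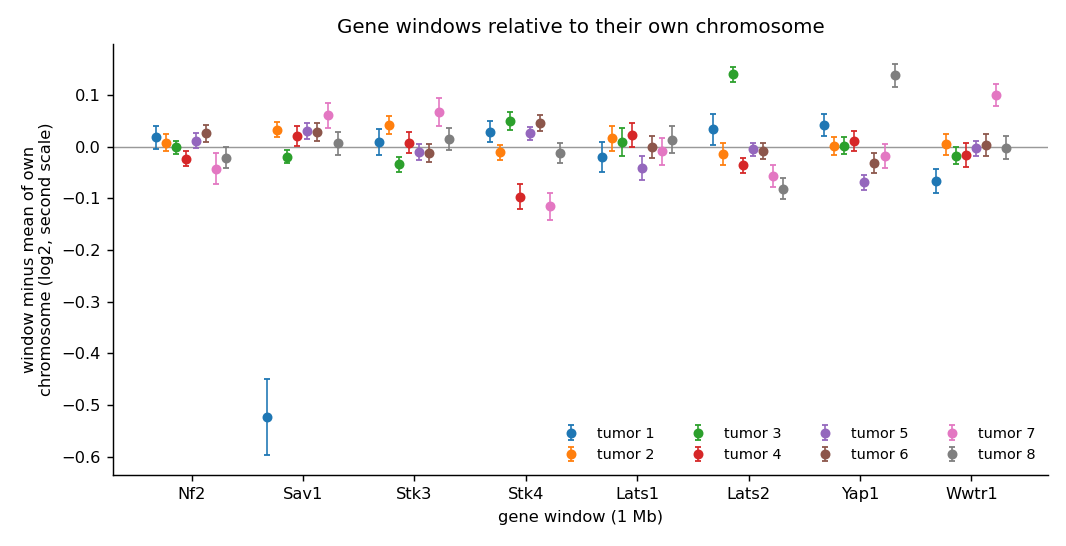
Level of each gene window minus the mean of its own chromosome, in log2 on the second scale, by tumor (points, with the SE over the probes of the window as bars). Sav1 in tumor 1 is at -0.52 and the other 63 points lie between -0.12 and 0.14.

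Counted over the 64 pairs of a gene and a tumor, 24 windows were gained (37.5%) and 5 lost (7.81%) on the first scale, where 27.2% of all 1 Mb windows were gained and 7.49% lost. On the second scale 6 were gained (9.38%) and 9 lost (14.1%), where 4.53% of all windows were gained and 14.4% lost. The share of losses was near that of all windows on both scales. On both scales the 6 gains were Stk3 in tumors 3, 4, 5, 6 and 8 and Lats2 in tumor 5. The 5 losses held by both scales were Sav1 in tumors 1 and 8, Lats2 in tumors 6 and 8 and Yap1 in tumor 6. The median over the 64 pairs was -0.004 on the second scale, and over all 2360 windows of 1 Mb with at least 30 probes it was -0.01.

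By tumor, the second scale counted 3 members as lost in tumor 6 (Sav1, Lats2 and Yap1), 2 in tumor 4 (Sav1 and Lats2), 2 in tumor 8 (the same genes) and 1 each in tumors 1 (Sav1) and 3 (Wwtr1). Tumors 2, 5 and 7 had 0 members lost. Gained members numbered 2 in tumor 5 (Stk3 and Lats2) and 1 each in tumors 3, 4, 6 and 8 (Stk3). Tumors 1, 2 and 7 had 0 members gained. The gained share of all 1 Mb windows was 15.8% in tumor 5, 5.85% in tumor 8 and 5.13% in tumor 4. It was 4.07% in tumor 6, 3.86% in tumor 3, 0.805% in tumor 1, 0.381% in tumor 7 and 0.297% in tumor 2. Of all 1 Mb windows, 36.7% were lost in tumor 6, 30.2% in tumor 3, 17.7% in tumor 1, 12.8% in tumor 8, 9.87% in tumor 4, 6.02% in tumor 7, 1.91% in tumor 2 and 0.339% in tumor 5, so tumor 6, with most members lost, also had the largest share of lost windows.

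A further 42 genes of the pathway were listed and could be placed by chromosome only, through RefSeq (42 matched). By the chromosome means of the second scale, 11 of their 336 pairs with a tumor were gained and 40 lost, while 5.0% of all chromosome means were gained and 11.9% lost. The 42 genes lie on 17 chromosomes, and genes of the same chromosome share its value, so these counts repeat chromosome means. On chromosome 12 with Sav1 lie Frmd6 (an upstream FERM protein), Map4k5 and the polarity gene Pals1 (Mpp5 in RefSeq), whose chromosome was lost in 4 tumors. On chromosome 14 with Lats2 lies Ajuba, a LIM protein that binds Lats kinases, whose chromosome mean was gained in 1 tumor and lost in 2. No tumor had a mean past 0.2 on chromosome 11, where Wwc1, Taok1 and Llgl1 lie with Nf2. The same held for chromosome 10, where Ccn2, a growth factor gene driven by Yap1, lies with Lats1. The median over the 336 pairs, -0.008, equalled that over all chromosome means.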

How the data were processed

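Genomic DNA was compared on Agilent arrays, extracted with Agilent Feature Extraction 10.7.3.1 per the submitters' processing notes. The authors deposited processed signals (intensity, with background subtracted, spatial trend removed and dyes scaled linearly, per the file headers) and a series table of log10 ratios of red over green, which differed from the arrays' own by at most 0.00498. The deposited quality marks for outliers and for signal above background, of unit other, take the values 0 or 1. Probe positions are on mm9, per the file headers. The number of further columns, of other samples, was 0.

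Log2 ratios of the processed signals were taken without control spots and outlier spots (115 to 221 per array), and spots of a probe were averaged. Both channels were well above background at 97.0% to 99.9% of spots. For the second scale each array's chromosome medians were subtracted, the median over arrays of each probe was scaled to each array and removed, and 0 was set at the commonest segment level, which also removes a short change that most tumors share. Segments were found on means of 5 neighbouring probes (split threshold z of 4.99, set to 1% false splits on simulated noise, values limited to 4 SD, merging below a z of 4). The edges of the Sav1 interval are the pair within 2 Mb that gives the largest least-squares step. A window was gained or lost at a log2 size of 0.2. Scripts were tested on simulated data. Tools were scipy 1.17.1, numba 0.67.0, pandas 2.3.3, numpy 2.4.6 and matplotlib 3.10.9 in Python 3.11.15, and R 4.3.3 with limma 3.58.1 for the normexp correction (offset 50).

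The members, windows, lists and tests were chosen with earlier results of these data known. All 8 members were named. Other pathway genes were named where they share a chromosome called in at least 2 tumors with a member or lie next to Sav1, and the genes on chromosomes 10 and 11 were added as examples after their values were seen. Probes were named at the edges, the lowest and the highest of the interval, and those at the Sav1 position, at the second highest value and dim in red were added. The Fah gene itself was not analysed here. Alternatives were other signals, scales, filters, window widths, call sizes and comparators, each slide alone and each tumor left out.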

Additional observations from a re-analysis of the deposited data

Results flagged for a closer look

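The gene windows, on both scales, with and without subtraction of the chromosome mean, gave 32 sets of 8 values. Chance alone meets Dixon's criterion in about 1 of 20 independent groups. The 32 sets repeat the same 8 windows, so their count is not compared with that rate. By this criterion 7 sets had a tumor far from the others. Of these, 4 concern Sav1 in tumor 1: -0.94 on the first scale (nearest tumor -0.28), -1.21 on the second (nearest -0.47), and, minus the chromosome, -0.46 (nearest 0.04) and -0.52 (nearest -0.02). These 4 restate the loss for which the gene was chosen and add no evidence for it. The Yap1 window of tumor 6 was at -0.495 on the second scale, the nearest tumor at -0.14. The Nf2 window of tumor 7 was at -0.12 on the second scale (nearest -0.008), in the tumor with the highest noise on that scale, 0.213. The Wwtr1 window of tumor 7 lay 0.10 above its chromosome on the second scale, with the nearest tumor at 0.005.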

How the results depend on the processing

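Of 189 results under an alternative, 166 kept their direction and call or stayed within the spread over tumors, 14 moved beyond it, 7 lost their call and 2 reversed. The second scale, which changes both the probe pattern and the zero, moved 3 gene means and reversed 1, more than any other setting. On it Lats1 turned from 0.25 to -0.017, and Stk4 went to -0.011, Nf2 to -0.005 and Wwtr1 to -0.073. Stk4 was at 0.037 with normexp and at 0.028 as a median over probes, and Lats1 at 0.13 in windows of 0.25 Mb on each side. Gained windows numbered 24 on the first scale, 6 on the second, 42 at a size of 0.1 and 13 at 0.3. Lost windows numbered 5 on the first, 9 on the second and 1 at 0.3. All 1 Mb windows were counted at a size of 0.2 only. The counts at 0.1 and 0.3 therefore cannot be compared with a share of all windows. The Sav1 interval of tumor 1 was at -1.67 on the first scale, -2.032 on the second, -2.074 with the pattern from tumors 2 to 8 and -1.087 with normexp. The test of the interval in tumors 2 to 8, from which no gain or loss is read, reversed only with the pattern from tumors 2 to 8 (-0.0044, exact p 0.672). Its second-scale value lost its call when tumor 2, 4, 5, 6, 7 or 8 was left out (0.0281 to 0.0377) and against probes within 2 Mb (0.0151, exact p 0.641). With each tumor left out in turn, every gene mean stayed within the spread, the largest shift being 0.117, but Lats2 changed sign without tumor 5 (0.051 to -0.001). The causes were not tested. Probe spacing limits the edges of the loss.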
